A study of Homo sapiens with 15 samples.

Results

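The comparison described here is that of cell pool 2 with cell pool 3 of Mia PACA-2, an established human pancreatic cancer cell line. Each pool number holds 3 libraries, 1 of control cells, 1 of cells overexpressing cytidine deaminase (CDA) and 1 of cells overexpressing its E67Q form (CDA_E67Q). The members were therefore 6 of the 15 libraries of the series, chosen by their titles and joined into 3 pairs: pool 2 and pool 3 of the control cells, of the CDA cells and of the CDA_E67Q cells. The other 9 libraries were pools 1, 4 and 5 of the same 3 groups. The series asks what CDA, the enzyme that turns cytidine and deoxycytidine into uridine and deoxyuridine, does in these cells. All cells were grown without drug in the same medium. How the cells were made to overexpress CDA, and whether the control cells carry an empty vector, was not stated in the labels. What a pool is was not stated either: nothing there calls the pools separate cultures, sublines or clones. A p-value here therefore sets a difference against the scatter among the deposited libraries, and that scatter may be technical.

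A cell line kept in culture is a mixed population. Cells of one line can differ in chromosome number, in DNA methylation and in which inducible pathways are switched on, and populations grown from few cells can keep such differences. Genes can separate pool 2 from pool 3 in the same direction in all 3 groups, whatever CDA form the cells carry. For a single gene such agreement can arise by chance and does not alone show a difference between the pools.

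Levels are given as normalised counts, which were computed back from the deposited log2 values, and always in the order control, CDA, CDA_E67Q. They are comparable within a pair, since the CDA_E67Q pair comes from a table that was normalised separately. Rankings of libraries across groups, such as pools that do not overlap, cross this boundary and may be shifted by a factor per gene. Read totals, estimated from the size of a single read in each library, ran from 25.6 to 30.2 M reads in pool 2 and from 21.1 to 30.6 M in pool 3, within the 21.1 to 30.6 M of all 15 libraries. The number of genes with a read was 12720 to 12825 in pool 2 and 12751 to 12850 in pool 3. The features known of the line were the same in both pools: CDKN2A, CDKN2B and MTAP, neighbours on chromosome arm 9p that the line has lost, were listed at 0 in all 6 libraries. Vimentin (VIM) had 115980 to 235370 and keratin 18 (KRT18) 8322 to 23980 normalised counts, and E-cadherin (CDH1) at most 3.33.

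Of 11971 tested genes, 283 (2.36%) differed between the pools at an adjusted p under 0.05 by limma with Benjamini-Hochberg adjustment: 157 were higher in pool 2 (1.31%) and 126 in pool 3 (1.05%). All 283 had the same sign in the 3 pairs, as did 4047 (33.8%) of the tested genes. Their median absolute difference was 1.20 on the log2 scale, and 172 of them (1.44% of tested genes) differed more than 2-fold, 97 higher in pool 2 and 75 in pool 3. Differences above 16-fold were found for 25 genes higher in pool 2 and 17 higher in pool 3. In 279 of the 283 the 3 libraries of one pool lay wholly above the 3 of the other, which held for 19.9% of all tested genes. Without an adjustment for multiple testing, 2468 genes passed a p of 0.05.

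The size of this count depends on how the spread is estimated. With pool 5 left out in every group 73 genes were called, and with the 6 libraries alone, which leave 2 residual degrees of freedom, only LAPTM5 and CDH12. Leaving out a single library gave 564 calls without the CDA library of pool 2, 103 without the CDA library of pool 3, 140 without the CDA_E67Q library of pool 2 and 71 without the CDA_E67Q library of pool 3. Of the 283 genes, 234 were called in at least 9 of the 18 alternative analyses, and 58 in every alternative other than the fit of 6 libraries. Across all tested genes the pair differences correlated with Pearson's r of 0.24 (control and CDA pair), 0.35 (control and CDA_E67Q pair) and 0.35 (CDA and CDA_E67Q pair). This is a description over 11971 genes, which are not independent and which share each library's depth and base composition. In the control pair the differences followed the GC content of the transcripts (Spearman's rho 0.36 over 10044 genes), in the CDA pair they followed it the other way (-0.22), and in the CDA_E67Q pair they followed transcript length most (-0.44). After a correction for both properties 378 genes were called, 253 of them among the 283.

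Beside the other pairs of pool numbers, fitted in the same way, pools 2 and 3 were an intermediate case. Pools 1 and 4 differed at 26 genes (0.217%), pools 1 and 2 at 167 (1.4%), pools 1 and 3 at 215 (1.8%), pools 2 and 4 at 437 (3.65%) and pools 3 and 4 at 498 (4.16%). Pool 5 differed from pool 2 at 5361 genes (44.8%) and from pool 3 at 3955 (33%). These comparisons share libraries and are given as counts only. Among genes higher in pool 2, pools 1, 4 and 5 lay nearer to pool 3 for 48, nearer to pool 2 for 39, and were divided for the remaining 70. Among genes higher in pool 3 the same numbers were 21 with pool 3 apart, 36 with pool 2 apart and 69 divided.

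LAPTM5, EPAS1 and IL18, taken as markers of the comparison with earlier results of these data known, were all high in pool 2 and low in pool 3. LAPTM5 (chromosome 1, 30732469 to 30757820, minus strand, GRCh38) encodes a lysosomal membrane protein best known from lymphocytes, where it takes antigen receptors to the lysosome. It had 10658, 17782 and 4899 in pool 2 and 11.6, 58.1 and 19.1 in pool 3. Every pool 2 library was above every other library of the series, which ranged from 2.31 to 521 in pools 1, 4 and 5. The fitted difference was 8.63 log2 units (SE 0.69, adjusted p = 0.000104), or 396-fold, and it was called in all 18 alternatives with values from 6.03 (on the deposited scale) to 9.24.

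EPAS1 (chromosome 2, 46293667 to 46386703, plus strand) encodes HIF-2 alpha, an oxygen-regulated transcription factor subunit. It had 622, 830.5 and 534 in pool 2 and 19.1, 48.5 and 31.7 in pool 3. Pools 1, 4 and 5 held 9.22 to 118, so that pool 2 again stood alone, 20.4-fold above pool 3 (4.35 log2 units, SE 0.43, adjusted p = 0.000475). The call was lost only with the 6 libraries alone (adjusted p = 0.0527).

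IL18 (chromosome 11, 112143251 to 112164117, minus strand) encodes interleukin-18, a cytokine made as a precursor and cut by caspase-1. Its levels were 212, 505 and 165 in pool 2 and 13.7, 9.98 and 20.9 in pool 3, against 0 to 31.4 in pools 1, 4 and 5. The 3 pool 2 libraries lay above all other 12. The difference of 4.10 log2 units (SE 0.78, adjusted p = 0.0212) kept its direction throughout, but its adjusted p rose to 0.061 without the control library of pool 2, 0.0857 without the CDA library of pool 3, 0.0993 without the CDA_E67Q library of pool 3, 0.0937 without pool 5 and 0.134 with the 6 libraries alone.

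**Figure D1:**
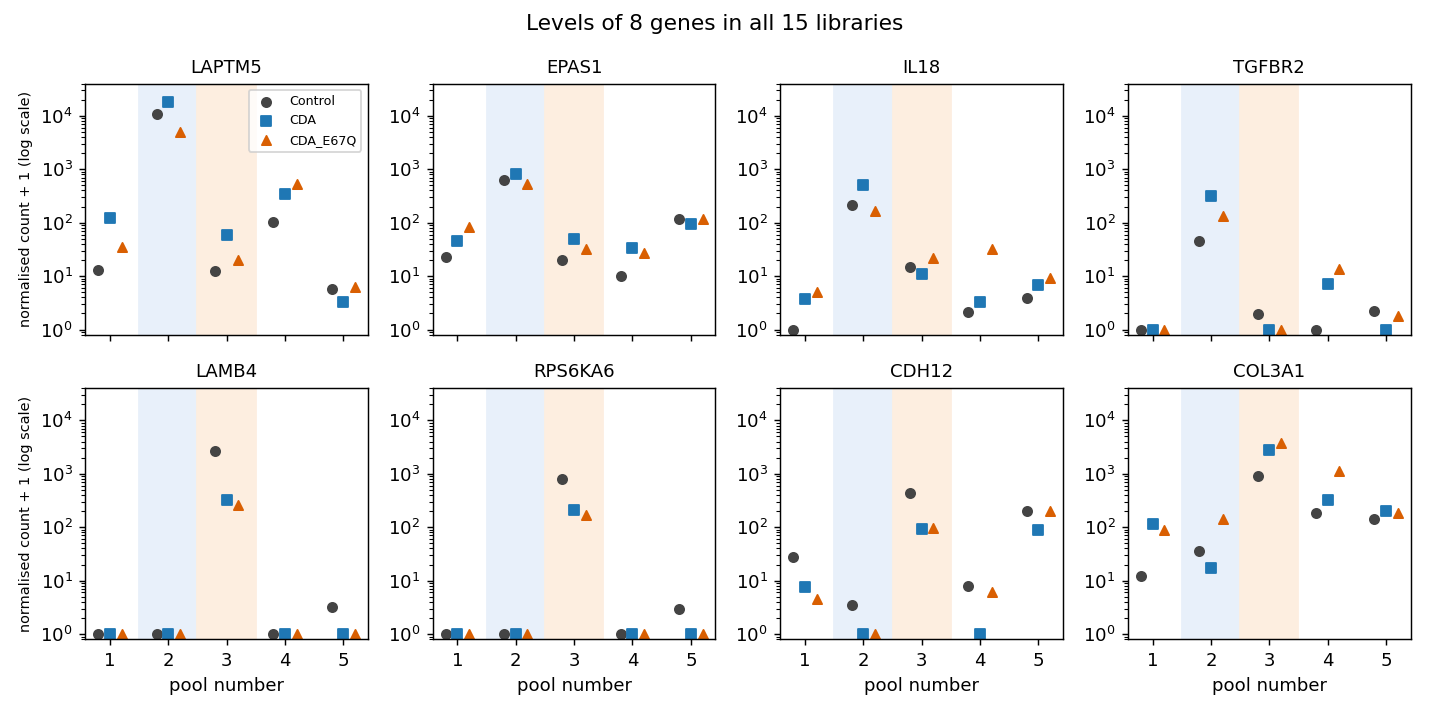
Normalised count plus 1 (y axis, log scale) of 8 genes in all 15 libraries by pool number (x axis); circles are control, squares CDA and triangles CDA_E67Q libraries, and the shaded columns mark pools 2 and 3. LAPTM5, EPAS1, IL18 and TGFBR2 were highest in the 3 libraries of pool 2, while LAMB4 (264 to 2633) and RPS6KA6 (166 to 785) were seen in pool 3 and at most 2.23 elsewhere.

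LAPTM5 belongs to a list of haematopoietic and myeloid markers, of which 14 of 31 members passed the filter on low values. Of these, LAPTM5 and lysozyme (LYZ, 21.8, 870 and 424 in pool 2 and 3.92, 5.93 and 6.73 in pool 3) were higher in pool 2 and none in pool 3 (14.3%, beside 1.31% of all tested genes higher in pool 2, with a median of 0.57, against -0.0099 over all tested genes). LAPTM5 had been taken as a marker with earlier results of these data known, so this share is no independent support. Unlike LAPTM5, LYZ was not particular to pool 2: it had 311, 728 and 1175 in pool 4. LYZ lost its call without the CDA library of pool 3 (adjusted p = 0.0588) and without the CDA_E67Q library of pool 2 (0.0565) or pool 3 (0.0672). The defining leukocyte genes CD53 and TYROBP were at 0 in all 6 libraries, PTPRC (CD45) reached 0.34, and the myeloid factor SPI1 reached 7.70. The monocyte receptor CD14 reached 23.3, and CORO1A, an actin-binding coronin of leukocytes, had 223 to 341 in the 6 libraries (-0.02, adjusted p = 0.988). The summed level of the list was 7931 to 22834 in pool 2 and 1364 to 2288 in pool 3, and without LAPTM5 and LYZ 2110 to 4182 and 1339 to 2273. Of its members, 19 were under 10 normalised counts in all 6 libraries. Fewer cells of a type and less RNA per cell cannot be told apart in bulk libraries, here and below.

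The promoters of 4 genes more than 20-fold lower, or listed at 0, in one of the pools are shown because they differ in CpG density, the feature of a promoter that DNA methylation acts on. Each is the 250 bases before the gene's start, taken from RefSeq (GRCh38.p14) and read 5′ to 3′ on the gene's own strand, with CpG dinucleotides in capitals. The RefSeq starts differ from the gene ends given above, which are those of GENCODE v29: the stretch of EPAS1 lies inside its gene span, and that of LAPTM5 overlaps the 5′ end of its span. That of LAPTM5 (chr1:30757775-30758024, minus strand) holds 3 CpG and that of EPAS1 (chr2:46297157-46297406, plus strand) 38. Among the genes seen in pool 3, that of LAMB4 (chr7:108130362-108130611, minus strand) holds 1 and that of RPS6KA6 (chrX:84188200-84188449, minus strand) 21.
LAPTM5: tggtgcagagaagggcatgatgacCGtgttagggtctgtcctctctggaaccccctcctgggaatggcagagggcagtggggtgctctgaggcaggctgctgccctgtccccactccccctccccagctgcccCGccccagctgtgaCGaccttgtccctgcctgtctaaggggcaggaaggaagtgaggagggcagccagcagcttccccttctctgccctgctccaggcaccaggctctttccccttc
EPAS1: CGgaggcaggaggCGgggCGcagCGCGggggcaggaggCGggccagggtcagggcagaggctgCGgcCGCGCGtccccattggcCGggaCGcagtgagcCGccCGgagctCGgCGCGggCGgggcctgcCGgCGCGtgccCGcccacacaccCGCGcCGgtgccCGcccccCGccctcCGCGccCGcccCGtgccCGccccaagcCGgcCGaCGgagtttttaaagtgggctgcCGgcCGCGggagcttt
LAMB4: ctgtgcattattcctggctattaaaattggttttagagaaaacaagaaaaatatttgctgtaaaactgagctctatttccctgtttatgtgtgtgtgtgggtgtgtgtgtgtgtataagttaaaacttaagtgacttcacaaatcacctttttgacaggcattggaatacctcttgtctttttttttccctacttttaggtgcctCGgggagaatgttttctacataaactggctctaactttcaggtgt
RPS6KA6: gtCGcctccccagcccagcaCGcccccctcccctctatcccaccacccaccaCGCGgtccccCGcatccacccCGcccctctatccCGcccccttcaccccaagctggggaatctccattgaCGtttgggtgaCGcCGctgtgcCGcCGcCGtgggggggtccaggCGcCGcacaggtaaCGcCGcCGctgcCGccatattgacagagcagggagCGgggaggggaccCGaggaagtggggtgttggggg

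The genes shown were picked to hold a CpG-poor and a CpG-rich promoter on each side, so they do not show how frequent either kind is. Counted over 300 bases (250 before to 50 after the start), fewer than 10 CpG were present in 18 of 75 promoters (24%) of genes more than 2-fold higher in pool 2 and in 13 of 58 (22.4%) of those more than 2-fold higher in pool 3. Over all called genes it was 18 of 119 (15.1%) for those higher in pool 2 and 15 of 104 (14.4%) for those higher in pool 3. The share was 11.1% (1061 of 9569) over all tested genes with a promoter in the table. No promoter of IL18 was used here, and methylation was not measured.

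Beyond these, the genes furthest above pool 3 in pool 2 had various roles. Differences of genes near 0 depend on the 1 that is added before the logarithm, so they are given as log2 values and not as folds. TGFBR2, the receptor that binds transforming growth factor beta first, had 43.9, 312 and 132 in pool 2 and 0.989, 0 and 0 in pool 3. It was at most 12.5 in pools 1, 4 and 5, and the difference was 6.61 log2 units (SE 0.92, adjusted p = 0.00367). GNG2, a G protein gamma subunit, had 838, 3429 and 698 in pool 2 and 25.9, 20.7 and 17.4 in pool 3 (5.84, adjusted p = 0.00223). CRYBG1, which binds actin, had 569, 2581 and 699.9 in pool 2 and 25.3, 7.49 and 6.14 in pool 3 (6.43, adjusted p = 0.00129). In all 3 of these genes the CDA library was the highest of pool 2, and pools 1, 4 and 5 held at most 89.9.

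A second set was present in every pool but pool 3. DKK1, a secreted inhibitor of Wnt signalling, had 694, 153 and 1708 in pool 2 and 6.64, 5.61 and 18.9 in pool 3, against 421 to 1562 in pools 1, 4 and 5 (5.82, SE 0.59, adjusted p = 0.000523). VEGFC, a growth factor of lymphatic endothelium, had 814, 138 and 959 in pool 2 and 2.28, 11.7 and 22 in pool 3, against 864 to 1696 elsewhere (5.60, adjusted p = 0.00129). NRIP1, a corepressor of nuclear receptors, had 488, 70.5 and 299 in pool 2 and 2.28, 1.97 and 4.48 in pool 3 (5.86, adjusted p = 0.00147), and CLEC2B, a C-type lectin that natural killer cells recognise, 104, 26.9 and 376 in pool 2 and 0.751, 0 and 0 in pool 3 (6.42, adjusted p = 0.0004). For these 4 genes pool 3 was below each of the other 12 libraries. In each of them the CDA library was the lowest of pool 2, unlike in TGFBR2, GNG2 and CRYBG1.

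SCNN1B, VCAN and PCDH15 rested on less even levels. SCNN1B, a subunit of the epithelial sodium channel, had 237, 27.8 and 443 in pool 2 and 0, 4.45 and 0 in pool 3. The proteoglycan versican (VCAN) had 2812, 19 and 114 in pool 2 and 3.66, 2.62 and 3.48 in pool 3, of which the control library of pool 2 held most. Both were called (adjusted p = 0.0212 and 0.0407), SCNN1B in 12 and VCAN in 7 of the 18 alternatives. Protocadherin PCDH15 was listed at 0 in all 3 libraries of pool 3 and had 218, 6.71 and 119 in pool 2 (adjusted p = 0.0288), and was called in 8 of the 18. Without the control library of pool 2 the adjusted p of VCAN was 0.0823, and without the CDA_E67Q library of pool 2 that of SCNN1B was 0.095.

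In the other direction, 4 genes were under 10 in all of pool 2 and over 100 in all of pool 3, and no gene showed the reverse. LAMB4, a laminin beta chain (chromosome 7, 108023548 to 108130356), was listed at 0 in all 3 libraries of pool 2 and had 2633, 326 and 264 in pool 3 (adjusted p = 0.000104). RPS6KA6, a kinase of the RSK family on the X chromosome (84058346 to 84187907), was likewise listed at 0 in pool 2 and had 785, 208 and 166 in pool 3 (adjusted p = 0.000104). Both were at most 2.23 in pools 1, 4 and 5, so that these transcripts were seen at a level above a few counts in pool 3 alone. They passed the filter on low values only through the 3 libraries of pool 3, so their adjusted p is no independent support. RNF128, an E3 ubiquitin ligase that is also X-linked, had 0, 0 and 2.91 in pool 2 and 618, 210.3 and 360.2 in pool 3 (-7.84, SE 1.20, adjusted p = 0.006). CORO2B, an actin-binding coronin, had 1.94, 7.63 and 4.61 in pool 2 and 624, 182 and 147 in pool 3 (-5.62, SE 0.65, adjusted p = 0.00106).

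In LAMB4, RPS6KA6 and CORO2B, and in ARHGAP15, the control library was the highest of pool 3. ARHGAP15, which switches off the GTPase Rac, was listed at 0 in pool 2 and had 812, 78.8 and 50 in pool 3 (adjusted p = 0.00106). The cadherin CDH12 had 2.48, 0 and 0 in pool 2 and 444, 91.7 and 96.7 in pool 3 (-6.71, SE 0.61, adjusted p = 0.00025) and was, besides LAPTM5, the only gene called from the 6 libraries alone. It was also present in pool 5, where the control library had 200.1.

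The order within pool 3 was another in COL3A1, GRIP2 and FSTL5, in which the CDA and CDA_E67Q libraries of pool 3 exceeded the control. COL3A1, the fibrillar collagen III chain, had 35.1, 16.6 and 140.3 in pool 2 and 894, 2820 and 3830 in pool 3 (-5.57, SE 0.65, adjusted p = 0.00111), and reached 1114 in the other pools. Of the fibroblast markers, the proteoglycans DCN and LUM were at 0 in all 6 libraries, while the collagen I chain COL1A2 had 19937 to 26817 (0.03, adjusted p = 0.984). The summed markers, mostly COL1A2, were 23240 to 27661 in pool 2 and 23855 to 29685 in pool 3. GRIP2, a scaffold of glutamate receptors, had 32.9, 42.7 and 24.6 in pool 2 and 461, 1485 and 1771 in pool 3 (-4.99, adjusted p = 0.00128). FSTL5, a secreted follistatin-like protein, had 0, 0 and 10.5 in pool 2 and 10.3, 900.4 and 1032 in pool 3: its groups overlapped, and it was called in 9 of the 18 alternatives. TH, ADM2 and LIPG were also among the 12 genes furthest below pool 3. Tyrosine hydroxylase (TH), the first enzyme of catecholamine synthesis, had 2.91, 0 and 10.9 in pool 2 and 139, 82.3 and 101 in pool 3 (-4.88, adjusted p = 0.00738). The peptide hormone ADM2 had 4.78, 0 and 10.8 in pool 2 and 369, 128 and 76.7 in pool 3, and endothelial lipase (LIPG) 28.2, 0.848 and 1.14 in pool 2 and 463, 86.6 and 63.8 in pool 3. LIPG was also high in pool 5 (720, 727 and 462) and was called in 10 of the 18 alternatives.

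**Figure D2:**
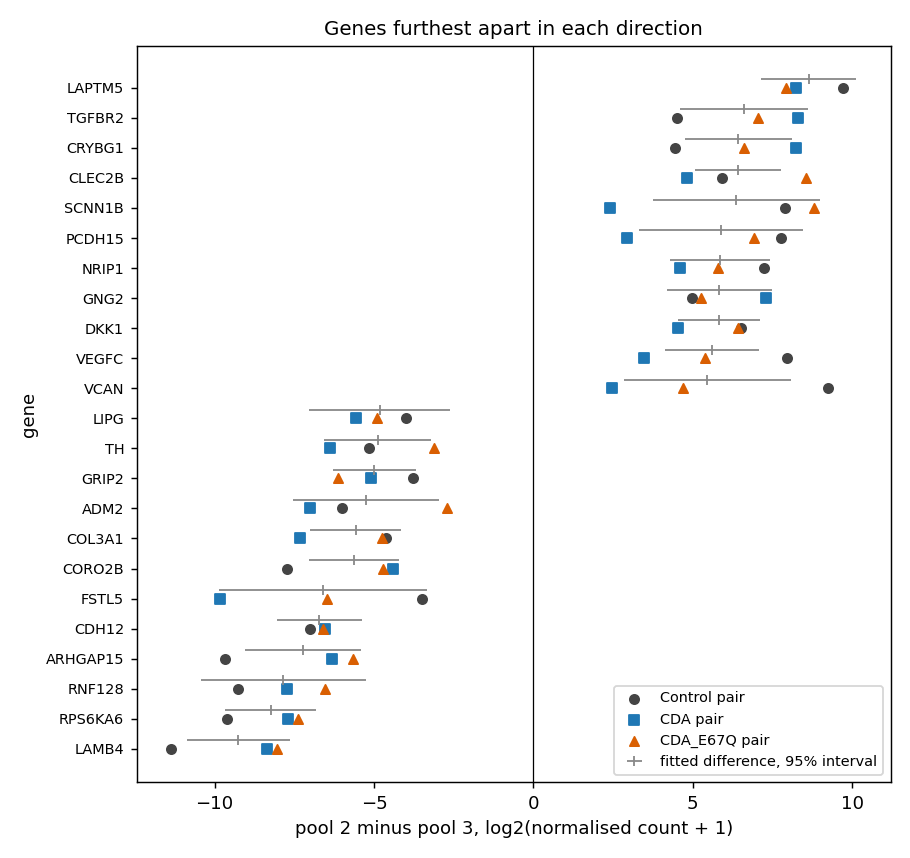
Difference between pool 2 and pool 3 in log2(normalised count + 1) (x axis) for genes furthest apart in each direction (y axis); symbols are the 3 pairs and grey lines the fitted difference with its 95% interval. All 3 pairs lie on the same side of 0 for every gene drawn; for LAMB4, RPS6KA6, ARHGAP15 and PCDH15, listed at 0 in one pool, the distance depends on the added 1 and is no fold.

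Some other lysosomal genes were also higher in pool 2. Of 37 tested members of a list of autophagy and lysosome genes, 5 were higher in pool 2 and none in pool 3 (13.5%, beside 1.31% of all tested genes higher in pool 2). Among them were the protease cathepsin D (CTSD), the membrane glycoprotein LAMP1, the proton pump subunit ATP6V0D2 and the autophagy initiator BECN1. CTSD had 37432, 30704 and 52210 in pool 2 and 12177, 18052 and 17996 in pool 3 (1.31, SE 0.21, adjusted p = 0.00738), and the 3 pool 2 libraries were above all other 12. ATP6V0D2 had 153, 54.1 and 157 in pool 2 and 1.55, 8.90 and 8.98 in pool 3 (4.13, adjusted p = 0.0197). The list had the same sign in all pairs for 20 members, 15 higher in pool 2 and 5 in pool 3, and its median was 0.39, made of 0.32 in the control, 0.05 in the CDA and 0.74 in the CDA_E67Q pair. The number called was 1 without pool 5, 10 without the CDA library of pool 2, 1 without either CDA_E67Q library and 2 without any other library of these pools.

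EPAS1 was the single called member among 26 tested genes of the HIF pathway (median 0.06, with 10 of the same sign in the 3 pairs). Its relative HIF1A had 2627 to 5229 normalised counts in the 6 libraries (0.05, SE 0.21, adjusted p = 0.915). Their shared partner ARNT was -0.68 (adjusted p = 0.106) and VHL, which targets both for degradation, -0.73 (adjusted p = 0.11). Of the other hypoxia-inducible genes of the list none passed, and they lay on both sides of 0: PFKFB4 was 1.48 (adjusted p = 0.0974), CA12 -2.0 (adjusted p = 0.106) and VEGFA -0.02 (adjusted p = 0.972). In glycolysis the glucose transporter SLC2A1 was higher in pool 2 (3890.3, 5177 and 3028 in pool 2 and 1327, 1654 and 1477 in pool 3, difference 1.41, SE 0.27, adjusted p = 0.0212), the only call among 21 members. SLC2A1, itself hypoxia-inducible, lost the call without either control library, without the CDA or the CDA_E67Q library of pool 3, without pool 5 and with the 6 libraries alone (adjusted p 0.0534 to 0.159). The medians of the list were 0.31, 0.27 and 0.30 in the 3 pairs, with 10 members higher in pool 2 in every pair and 2 lower, GPI (-0.46, adjusted p = 0.0782) and HK2 (-0.44, adjusted p = 0.141).

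IL18 and NLRP3, the sensor of the inflammasome that leads to IL-18 processing, were both higher in pool 2. They were 12.5% of the inflammasome and IL-1 list, beside 1.31% of all tested genes higher in pool 2. IL18 had been taken as a marker with earlier results of these data known. NLRP3 would not have passed the filter on low values without pool 2. The share is therefore no independent support. NLRP3 had 29.5, 147 and 24.1 in pool 2 and 0.835, 0.681 and 1.03 in pool 3 (4.72, SE 0.81, adjusted p = 0.0123), and the 2 genes were the only calls among 16 tested members of the inflammasome and IL-1 family (median 0.02). CASP1, the protease that cuts the precursor, was listed at 0 in all 6 libraries, and the adaptor PYCARD was at most 9.71. NLRP3 lost its call without the CDA or the CDA_E67Q library of pool 3 (adjusted p = 0.0597 and 0.063). Among 24 genes of NF-kB signalling and its cytokines, the neutrophil attractants CXCL1 (2118, 3905 and 3308 in pool 2 and 777, 1610.1 and 646 in pool 3, difference 1.69, adjusted p = 0.01) and CXCL2 (169, 195 and 431 in pool 2 and 47.3, 107 and 20.3 in pool 3, 2.34, adjusted p = 0.0423) were higher in pool 2. CXCL1 and CXCL2 were 8.33% of that list, beside 1.31% of all tested genes higher in pool 2. The medians of the list were 0.23, -0.41 and 0.81 in the 3 pairs. CXCL2 missed the threshold without the control library of pool 3 (adjusted p = 0.0779) and without the CDA_E67Q library of pool 2 or 3 (0.129 and 0.189).

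None of 37 interferon-stimulated genes was called by limma, although their median was 0.50. At an unadjusted p under 0.05 there were 5, beside 2468 of all 11971 tested genes. In the 3 pairs 12 had the same sign, beside 4047 of all tested genes. The pair medians were 0.81 in the control, -0.29 in the CDA and 0.83 in the CDA_E67Q pair, so that the CDA pair ran the other way. ISG15, a ubiquitin-like protein, showed the split: 1246 and 326 in the control pair, 1589 and 2409 in the CDA pair, 3007 and 590.2 in the CDA_E67Q pair (pool 2 first). In antigen presentation the one call was CIITA, the activator of class II genes, with 11, 12.1 and 7.56 in pool 2 and 45.3, 368 and 206 in pool 3 (-3.79, SE 0.58, adjusted p = 0.00621). The class II genes described here were high in the CDA and CDA_E67Q libraries of pool 3 and not in its control library. CD74, the class II invariant chain, had 2.94, 5.70 and 7.82 in pool 2 and 7.35, 1168 and 313 in pool 3 (-4.56, adjusted p = 0.11), and HLA-DRB1 had 3.67, 4.05 and 12.8 against 3.12, 554 and 442 (-3.87, adjusted p = 0.14). HLA-DRA, 0.874 in the pool 3 control library and 158 and 159 in the other pool 3 libraries, was under the filter and not tested.

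In signalling pathways that act through secreted ligands, single components differed, with list medians near 0 for TGF-beta and BMP and below 0 for Wnt and Notch. Of 33 tested genes of the TGF-beta and BMP pathway, TGFBR2, LTBP3 and SKIL were higher in pool 2 and none in pool 3. They were 9.09% of the list (median 0.02), beside 1.31% of all tested genes higher in pool 2. TGFBR2 would not have passed the filter on low values without pool 2, so its part in this share is no independent support. LTBP3, which holds latent TGF-beta in the matrix, had 2798, 2543 and 2854 in pool 2 and 1265, 1873 and 1557 in pool 3 (0.82, adjusted p = 0.026), and SKIL, a repressor that TGF-beta signalling induces, 412, 652 and 339 in pool 2 and 141, 203 and 231 in pool 3 (1.26, adjusted p = 0.0451). The ligand TGFB2 had 18.6, 1952 and 612 in pool 2 and 4.28, 21.2 and 22.9 in pool 3 (4.34, adjusted p = 0.0684). The partner receptor TGFBR1 (0.43, adjusted p = 0.438) and the feedback inhibitor SMAD7 (1.02, adjusted p = 0.321) did not pass. The list's calls numbered 1 without pool 5, without the control library of pool 3 or without the CDA_E67Q library of pool 3, and 2 in the other fits that left out a library.

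Of 35 Wnt pathway genes, 2 were higher in pool 2 (DKK1 and the transcription factor TCF7) and 2 in pool 3 (the co-receptor LRP6 and the secreted antagonist SFRP1), with a median of -0.28. These calls were 11.4% of the list, beside 2.36% of all tested genes. SFRP1 had 29.5, 63.9 and 154 in pool 2 and 352, 1599 and 4662 in pool 3 (-4.35, SE 0.98, adjusted p = 0.0429), the opposite pattern to DKK1. Its adjusted p ran from 0.0564 to 0.196 with one library left out in 5 of 6 cases, highest without the CDA_E67Q library of pool 3. TCF7 had 9647, 8522 and 4943 in pool 2 and 3202, 1604 and 2409 in pool 3 (1.68, adjusted p = 0.01), and LRP6 977, 1016 and 687 in pool 2 and 1793, 1352 and 1459.6 in pool 3 (-0.79, adjusted p = 0.0247). In the Notch and Hedgehog list, the transcription factor HES1 was the one call of 25, with 6136, 4810.3 and 5142 in pool 2 and 1768, 1694 and 1838 in pool 3 (1.59, SE 0.14, adjusted p = 0.000146), while the list's median was -0.32.

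Among 30 growth factor ligands and their binding proteins, IGFBP4, VEGFC and EFNB2 were higher in pool 2 and none in pool 3 (10%, beside 1.31% of all tested genes; median 0.30). IGFBP4, which binds insulin-like growth factors, had 12422, 40715 and 18667 in pool 2 and 2829.7, 2076 and 1507 in pool 3 (3.35, SE 0.37, adjusted p = 0.000776). EFNB2, a membrane-bound ephrin, had 461, 723 and 456 in pool 2 and 149, 65.3 and 42.5 in pool 3 (2.82, SE 0.37, adjusted p = 0.00223). The number higher in pool 2 was 3 without pool 5 and 3 or 4 with any library left out. Of 20 genes that report MAPK activity, FOSL1 (4887, 8920.1 and 7229 in pool 2 and 2563, 4185 and 3634 in pool 3, 1.00, adjusted p = 0.00534) and the phosphatase DUSP1 (4668, 3069 and 3021 in pool 2 and 2424, 1513 and 1471 in pool 3, 1.00, adjusted p = 0.0113) were higher in pool 2 (10% of the list). The share of all tested genes higher in pool 2 was 1.31%. The fold was close to 2 in each pair of FOSL1 and DUSP1. Among 29 receptor tyrosine kinases only TYRO3 was called, lower in pool 2 (-1.01, adjusted p = 0.0484).

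Adhesion and state genes gave few calls. The tetraspanins CD82 (1623, 1955 and 981 in pool 2 and 486, 563 and 532 in pool 3, 1.47, adjusted p = 0.0429) and CD151 (0.51, adjusted p = 0.0494) were the 2 calls of 22 integrins and adhesion receptors, both higher in pool 2. They were 9.09% of the list, beside 1.31% of all tested genes higher in pool 2. CD82 was called in 8 and CD151 in 6 of the 18 alternatives. The hemidesmosome integrin ITGB4 (16458, 10993 and 9467 in pool 2 and 4872, 2341 and 7961 in pool 3, 1.41, adjusted p = 0.0477) was the one call of 32 epithelial genes. VCAN was the one of 23 collagen and basement membrane genes. COL3A1 was the one of 6 fibroblast markers. No call was made by limma among 24 mesenchymal genes, 25 proteases and inhibitors, 8 endothelial markers, 9 neuroendocrine markers, 9 pancreatic lineage genes, 17 HOX genes, 15 imprinted genes and 3 cancer-testis antigens. At an unadjusted p under 0.05 these lists held, in the same order, 4, 9, 2, 4, 0, 7, 1 and 1 genes. Over all 11971 tested genes 2468 passed this threshold. The smallest p of the proteases and inhibitors was that of SERPINB9, an inhibitor of granzyme B (-1.06, adjusted p = 0.0617), followed by the kallikrein KLK8 (-2.66, adjusted p = 0.0734).

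Cholesterol and fatty acid synthesis was the list with the most members higher in pool 3. Its genes are activated together by the SREBP transcription factors when cells lack sterol. Of 29 tested members, 6 were higher in pool 3 and none in pool 2 (20.7%, beside 1.05% of all tested genes higher in pool 3). In all 3 pairs 19 were higher in pool 3, and none was higher in pool 2 in all 3. The median was -0.53, and -0.52, -0.39 and -0.80 in the control, CDA and CDA_E67Q pair. The desaturase SCD had 15009, 21874 and 8995 in pool 2 and 53627, 34462 and 40841 in pool 3 (-1.56, SE 0.29, adjusted p = 0.0193). Of the enzymes late in cholesterol synthesis, DHCR7 had 1370, 1606 and 1190 in pool 2 and 2388, 3411 and 3108 in pool 3 (-1.09, SE 0.22, adjusted p = 0.0265), and CYP51A1 1395, 1407 and 1317 in pool 2 and 2783, 2276 and 2248 in pool 3 (-0.82, SE 0.17, adjusted p = 0.031).

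Other calls were INSIG1, which retains SREBP in the endoplasmic reticulum (-1.22, adjusted p = 0.0429), and acetyl-CoA carboxylase ACACA (-0.72, adjusted p = 0.031). The fold was above 2 for 6 of the 29 genes, while the direction was shared: 26 of 29 fitted differences were below 0. The direction and the median held in every alternative (-0.65 to -0.43), but the calls did not. None was left with the 6 libraries alone, without pool 5, without the control library of pool 2, or without the CDA_E67Q library of pool 2 or of pool 3. Without a mean-variance trend 1 was left. Without the CDA library of pool 3 the number was 2, without the control library of pool 3 it was 4, and without the CDA library of pool 2 it was 11.

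**Figure D3:**
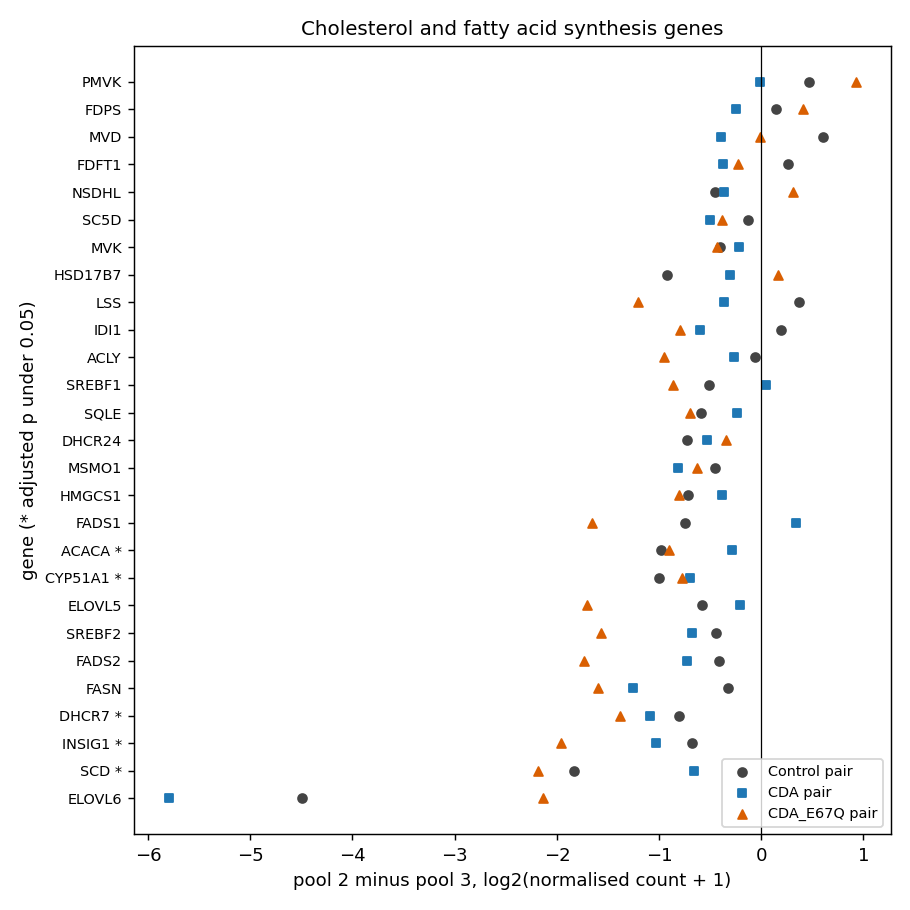
Difference between pool 2 and pool 3 in log2(normalised count + 1) (x axis) for tested genes of cholesterol and fatty acid synthesis (y axis, an asterisk marks an adjusted p under 0.05); symbols are the 3 pairs. For most genes drawn all 3 pairs lie below 0, meaning a higher level in pool 3, and for no gene drawn do all 3 lie above.

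Proliferation genes gave single calls, all higher in pool 2. They were 2.22% to 3.70% of each list, beside 1.31% of all tested genes higher in pool 2, and each share rests on 1 gene. Over all 11971 tested genes, 2014 were higher in pool 2 in all 3 pairs and 2033 in pool 3. Of 45 DNA replication genes, 21 were higher in pool 2 in all 3 pairs and 1 in pool 3, with a median of 0.25, but only thymidine kinase TK1 was called (5963, 7147 and 9077 in pool 2 and 3002, 5029 and 4048 in pool 3, 0.89, SE 0.17, adjusted p = 0.0247). Of 38 genes of G2/M and mitosis, 16 were higher in pool 2 in all 3 pairs and none in pool 3, with the survivin gene BIRC5 called (6259, 7849.5 and 8018 in pool 2 and 3934, 5208 and 5114 in pool 3, 0.64, adjusted p = 0.0423) and a median of 0.15. TK1 was also the only call of 36 genes of pyrimidine metabolism and nucleoside transport (median -0.05). DDB2, a DNA damage sensor under p53 control in other cells, was the one call of 27 cell-cycle inhibitors and p53 targets (1079.5, 1016 and 1214 in pool 2 and 551, 610.3 and 617 in pool 3, 0.89, adjusted p = 0.0108). The medians of 19 replication-dependent histone genes were 1.73, -0.19 and 0.58 in the 3 pairs, and limma called none. Of these genes 3 had an unadjusted p under 0.05, beside 2468 of all 11971 tested genes. Histone genes share near-identical sequences and lack a poly-A tail, which the library protocol selects for, so these values are uncertain.

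Stress genes called were higher in pool 2. Of 29 genes of the integrated stress and unfolded protein response, the 2 calls were the endoplasmic reticulum proteins MANF (1780.3, 1912 and 2394 in pool 2 and 826, 1327 and 1380.3 in pool 3, 0.81, adjusted p = 0.0342) and CRELD2 (0.97, adjusted p = 0.0231). Of 22 immediate early and heat shock genes they were FOS (8304, 10708 and 5508 in pool 2 and 5989.6, 2008 and 2211 in pool 3, 1.40, adjusted p = 0.0423) and HSPA1B (0.75, adjusted p = 0.0411), the latter of which has a near-identical copy in HSPA1A. The calls were 6.90% of the first list and 9.09% of the second, beside 1.31% of all tested genes higher in pool 2. FOS was called in 8 of the 18 alternatives. NQO1, an antioxidant enzyme, was the one call of 40 NRF2 targets and detoxification genes (54742, 43033 and 55249 in pool 2 and 26460, 26805 and 29058 in pool 3, 0.89, adjusted p = 0.0395). Of 34 genes of DNA methylation and chromatin silencing, HDAC5 (-1.45), HDAC9 (-1.26) and EZH1 (-0.89) were higher in pool 3, with adjusted p of 0.0345, 0.0429 and 0.0348. They were 8.82% of the list, beside 1.05% of all tested genes higher in pool 3. These 3 calls fell to 0 without pool 5, without the CDA library of pool 3 and without either CDA_E67Q library, to 2 without either control library, and to 1 without the CDA library of pool 2. Among 43 ribosomal protein genes and 30 MYC and ribosome biogenesis genes limma called none. At an unadjusted p under 0.05 they held 1 and 7, beside 2468 of all 11971 tested genes. Of 46 oxidative phosphorylation genes NDUFA10 was called, higher in pool 2 (0.71, adjusted p = 0.0306). It spans the 240 Mb boundary on the long arm of chromosome 2 and was counted, by its lowest coordinate, in the window before the last one described next.

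**Figure D4:**
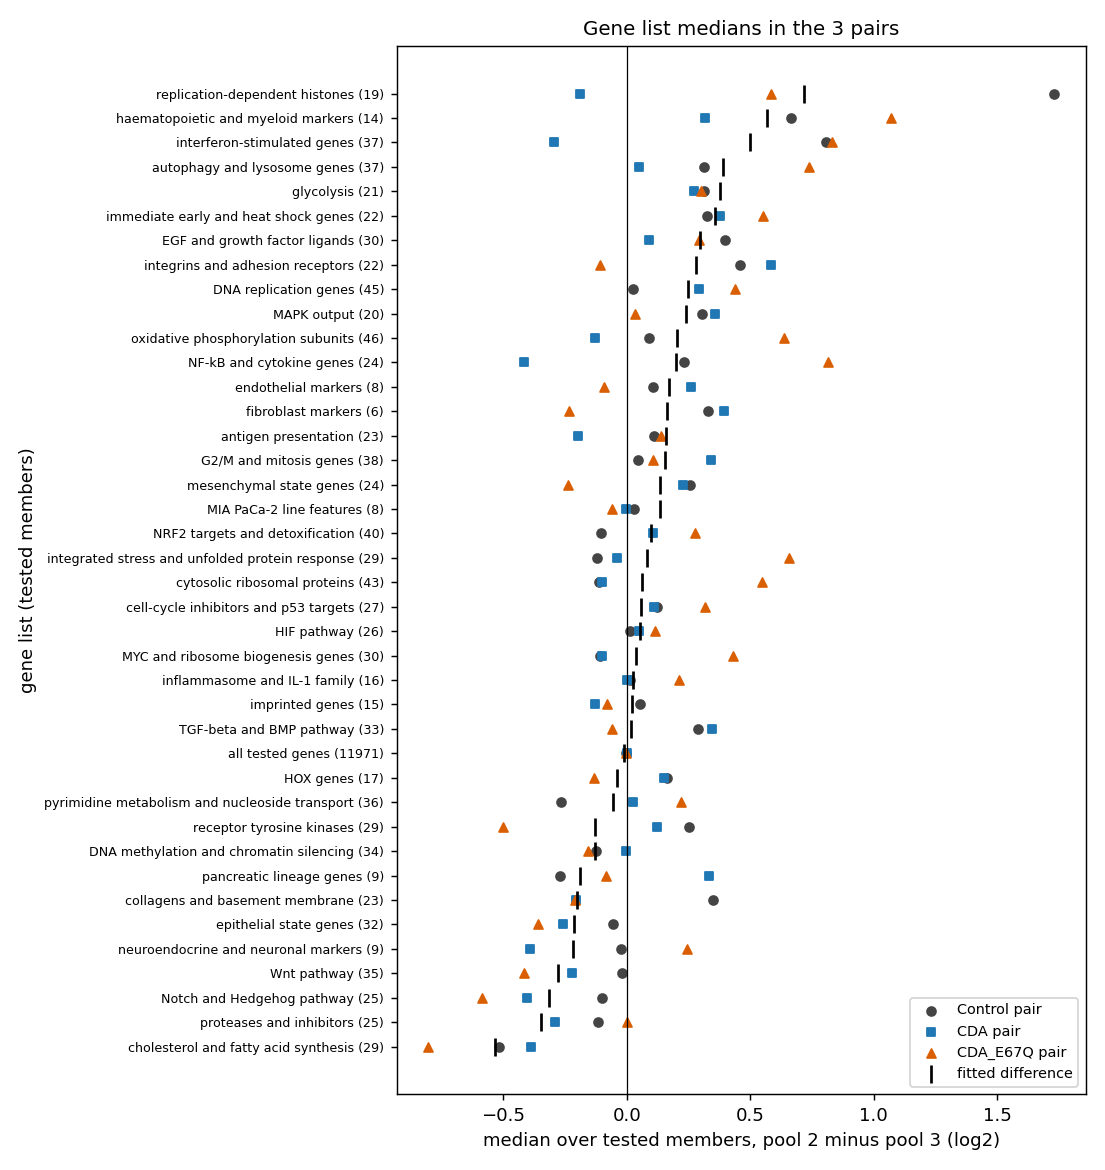
Median difference between pool 2 and pool 3 over the tested members of each gene list (x axis, log2), with the number of tested members in brackets (y axis); symbols are the 3 pairs and black bars the fitted difference. Cholesterol and fatty acid synthesis has the lowest fitted median drawn (-0.53; cancer-testis antigens, with 3 tested members, are left out), and the 3 pairs of the interferon-stimulated genes lie at 0.81, -0.29 and 0.83.

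By position in the genome, the called genes were most frequent in 2 stretches of chromosome 2. Genes were placed with GENCODE v29 (GRCh38) in windows of 10 Mb, and 214 windows held at least 20 tested genes. In the window from 40 to 50 Mb, which holds EPAS1, 8 of 33 genes (24.2%) were higher in pool 2 and none in pool 3. Its median was 0.58, and 0.65, 0.70 and 0.50 in the 3 pairs. In the last window of the long arm, from 240 Mb, 11 of 25 genes (44%) were higher in pool 2 and none in pool 3, with a median of 0.60 and pair medians of 0.85, 0.45 and 0.71. In every other window at most 12% of genes were called. After the correction for GC content and length the pair medians were 0.72, 0.64 and 0.67 in the first window and 0.67, 0.62 and 0.71 in the second.

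In 7 other windows the median was past 0.3 in one direction with the same sign in the 3 pairs. On chromosome 3 the adjoining windows from 170, 180 and 190 Mb had medians of 0.31, 0.36 and 0.33, with 3 of 25, 3 of 47 and 2 of 40 genes called, all higher in pool 2. Their pair medians were 0.54, 0.65 and 0.66 in the control pair but 0.15, 0.05 and 0.09 in the CDA pair. On the X chromosome the window of 40 to 50 Mb had a median of 0.50, made of 0.26, 0.0020 and 1.08 in the 3 pairs, and its single call of 59 was higher in pool 3. The median was below 0 on chromosome 2 from 180 to 190 Mb (-0.40, 1 of 22 called) and on chromosome 3 from 10 to 20 Mb (-0.31, 1 of 48) and from 30 to 40 Mb (-0.39, 1 of 39). These chromosome 3 windows rested mostly on the CDA_E67Q pair (-0.75 and -0.82). Their medians were -0.03 and -0.15 in the control pair and -0.10 and -0.01 in the CDA pair.

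In both chromosome 2 windows with many calls the level of pool 3 was low, and that of pool 2 was close to pools 1 and 4. Relative to the median of its group, the median gene of the first window was -0.35, -0.45 and -0.39 in pool 3 and between 0 and 0.12 in pool 2. In the second it was -0.69, -0.32 and -0.36 in pool 3 and 0.05 to 0.08 in pool 2. Most of the called genes differed by less than a factor of 2, unlike EPAS1. EPAS1 also departed from the pattern of its window, since pool 2 stood apart in it. Its pool 3 levels (19.1 to 48.5) lay within the 9.22 to 118 of pools 1, 4 and 5. The calmodulin gene CALM2 (47160082 to 47176601) had 17078, 20559 and 21034 in pool 2 and 10426, 11109 and 10053 in pool 3 (0.89, SE 0.15, adjusted p = 0.01). Others of the first window were COX7A2L, PPM1B, CRIPT, MCFD2 and PPP1R21, with differences of 0.71 to 1.04.

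In the second window thymidylate kinase DTYMK (241675742 to 241686991) had 2562, 3066 and 3580 in pool 2 and 1020.2, 1524 and 1393 in pool 3 (1.23, SE 0.19, adjusted p = 0.006). Its neighbours ING5 (0.93), ATG4B (0.65), BOK (0.82), STK25 (0.70), HDLBP (0.73), MTERF4 (0.74), KIF1A (1.21), CAPN10 (0.98), RNPEPL1 (0.72) and COPS9 (1.21) were called in the same direction. The number called in the first window was 2 without pool 5 and 2 to 7 with a library left out, lowest without the CDA_E67Q library of pool 3. In the second it was 2 without pool 5 and 2 to 12 with a library left out, lowest without either CDA_E67Q library. The share of genes above 0 changed less: 30 of 33 in the first window, and 29 to 32 with a library left out. TGFBR2 was the call of the window from 30 to 40 Mb of chromosome 3, whose median ran against it. DNA was not measured in these libraries.

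**Figure D5:**
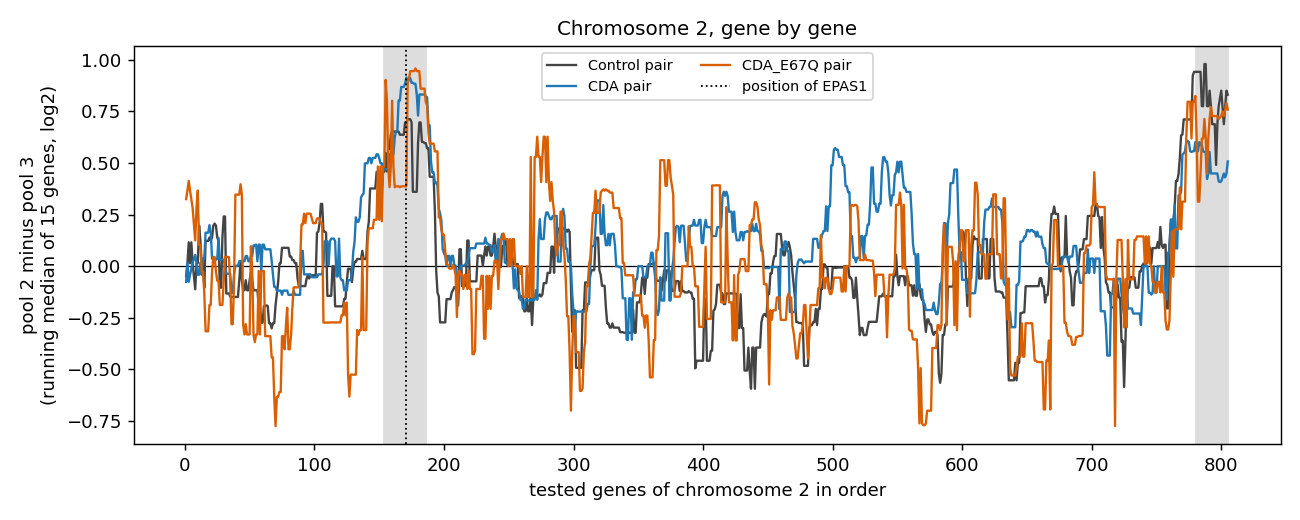
Running median over 15 neighbouring genes of the difference between pool 2 and pool 3 (y axis, log2) along the 805 tested genes of chromosome 2 in order (x axis); lines are the 3 pairs, the shaded areas the windows of 40 to 50 Mb and from 240 Mb, and the dotted line EPAS1. The 3 lines rise together in the shaded areas, where the pair medians were 0.50 to 0.70 and 0.45 to 0.85.

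CDA itself had 250.3 and 312 normalised counts in the control libraries of pools 2 and 3, 5222 and 2205 in the CDA libraries and 1717 and 5383 in the CDA_E67Q libraries. Both CDA libraries were above both controls. The CDA_E67Q levels were normalised separately and are not set against the controls here. The pools did not differ in one direction: CDA was higher in pool 2 in the CDA pair (1.24 log2 units) and in pool 3 in the CDA_E67Q pair (-1.65), and the fitted difference was -0.24 (SE 0.69, adjusted p = 0.873). Opposite differences were also found beyond CDA. In 433 of the 11971 tested genes one pair was more than 1 log2 unit above 0 and another more than 1 below, in 77 more than 2 and in 17 more than 3.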

How the data were processed

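Poly-A RNA of Mia PACA-2 cells, 15 libraries, was sequenced from 1 µg of total RNA per library, per the labels' protocols. The submitters' processing notes name bcl2fastq, FastQC, Trimmomatic and Salmon with GRCh38 and give no versions. The authors deposited 2 tables of 16887 genes on a log2 scale, each with the control libraries and those of one CDA form. All genes without a read hold one floor value (6.65 and 6.17), the form of a variance-stabilised count, and how they were made from Salmon's output was not stated. They were turned back into normalised counts (V − F)²/V, where V is 2 to the power of the value and F the same for the floor. The shared control libraries then differed between the tables by gene and library factors only (largest residual 1.36e-08 log2 units over 11000 genes). Control and CDA levels were taken from the table with CDA and CDA_E67Q levels from the other. Gene names matched RefSeq for 16667 genes, and 16844 were placed with GENCODE v29.

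Genes with at least 10 normalised counts in at least 3 of the 15 libraries were tested with limma 3.58.1 (R 4.3.3) on log2(normalised count + 1), with a mean-variance trend, terms for pool number and group, and the contrast pool 2 minus pool 3. The group term is the block that pairs the libraries, and 8 residual degrees of freedom remain because pools 1, 4 and 5 share in the estimate of the spread. Adjusted p-values are Benjamini-Hochberg over all 11971 tested genes, with a threshold of 0.05. LAMB4 and RPS6KA6 passed the filter through pool 3 alone. TGFBR2, NLRP3, SCNN1B, ARHGAP15 and FSTL5 would not have passed without the pool where they were high. The p-values of these genes are thus not independent of the filter. Exact permutation tests of single genes cannot go below 0.25 (paired) or 0.1 (unpaired) and were not used. Pairing of the same pool number across groups was checked on deviations from group means: the correlations were 0.35 to 0.45 in pool 2, 0.35 to 0.65 in pool 3, 0.33 to 0.63 in pool 4 and 0.89 to 0.90 in pool 5. In pool 1 it was 0.65 between CDA and CDA_E67Q, but 0.041 and -0.023 between these and the control. The fit was tested on simulated data with independent residuals. These lacked the trends with GC content and length, so the test cannot show how those affect the calls.

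The genes named are CDA, LAPTM5, EPAS1 and IL18, the 12 with the largest difference in each direction among called genes with a mean of at least 100 normalised counts in the higher pool, genes under 10 in one pool and over 100 in the other, and up to 3 called members of each list in each direction, or the 2 with the smallest p; a few genes that this rule names are not reported or drawn here, but count in the totals. Other members named beside them, the class II genes and the genes of the chromosome 2 windows were chosen after their values were seen. The members and the 41 gene lists were chosen with earlier results of these data known. Lists are described by counts and medians. Their counts stand beside 2.36% of all tested genes called, 1.31% higher in pool 2 and 1.05% higher in pool 3. Windows of 10 Mb with at least 20 tested genes were named where the median passed 0.3 with the same sign in the 3 pairs. The use of strand in read assignment was not stated, so genes that overlap or run antisense are uncertain. Python 3.11.15, numpy 2.4.6, pandas 2.3.3 and matplotlib 3.10.9 were used.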

Additional observations from a re-analysis of the deposited data

Results flagged for a closer look

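These values differ in direction between the 3 pairs: the pair with the lowest and the pair with the highest value lie on opposite sides of 0, both past 0.2 log2 units. Each group has 1 pair, so the difference between groups was not tested, and its cause was not tested. CDA lay at -1.65 in the CDA_E67Q pair and 1.24 in the CDA pair. In the CDA pair the median was the lowest for the NF-kB and cytokine genes (-0.41, highest 0.81 in the CDA_E67Q pair), the interferon-stimulated genes (-0.29, highest 0.83 in the CDA_E67Q pair) and the neuroendocrine markers (-0.39, highest 0.25 in the CDA_E67Q pair). In the CDA_E67Q pair the median was the lowest for the fibroblast markers (-0.23, highest 0.39 in the CDA pair), the mesenchymal genes (-0.24, highest 0.26 in the control pair), the collagens and basement membrane genes (-0.21, highest 0.35 in the control pair) and the receptor tyrosine kinases (-0.50, highest 0.25 in the control pair). In the control pair it was the lowest for the pancreatic lineage genes (-0.27, highest 0.33 in the CDA pair) and for pyrimidine metabolism and nucleoside transport (-0.26, highest 0.22 in the CDA_E67Q pair).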

How the results depend on the processing

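The 283 calls (157 higher in pool 2, 126 in pool 3) became 2 (1 and 1) with the 6 libraries alone, where 2 residual degrees of freedom remain, and 73 (46 and 27) without pool 5 in every group. They became 155 (87 and 68) without a mean-variance trend. Without the replicate block, that is without the group term that pairs the libraries, they became 468 (261 and 207), 277 of them among the 283. Leaving out 1 library of the 2 pools gave 71 to 564 calls (43 to 272 higher in pool 2, 28 to 292 in pool 3). The other alternatives gave 202 calls without the filter on low values and 284 to 378 elsewhere: other controls, deposited values, an added count of 4, a filter within pools 2 and 3, upper-quartile or TMM scaling, and the correction for GC content and length, which was chosen after seeing the data. The cause of these shifts was not tested.

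For the 64 named genes that were called, 840 of 1151 alternative values kept the call, 311 missed the threshold in the same direction and 0 reversed. The difference of CDA, which was not called, was -0.83 without the CDA library of pool 3 and turned positive without the control library of pool 3 (0.35) and without the CDA_E67Q library of pool 2 (0.64). Of 720 alternative list medians 31 moved by more than the spread between the pairs, and of 162 window medians 2 did. The read totals are estimates, so no counting interval is given, and values of a few counts are at the limit of what this depth can show.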
